A study of Rattus norvegicus with 16 samples.

Results

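Heat shock proteins and DnaJ proteins are molecular chaperones, proteins that bind other proteins while they fold. They were described here in the proximal femur of 4 inbred rat strains. The members were the probe sets whose single gene symbol in the array annotation names a DnaJ protein of class A, B or C, a heat shock protein of the HSPA, HSPB, HSPD, HSPE or HSPH families, or an HSP90. The rule found 96 probe sets of 62 genes, of 14217 genes that had a probe set with 1 symbol. Each gene was represented by its probe set with the highest mean log2 signal. After probe sets with a mean signal under 174 were left out, 54 of the 62 genes could be tested. The other 8, Dnajb3, Dnajb7, Dnajb13, Hspa1l, Hspa4l, Hspa12a, Hspa12b and Hspb9, had mean signals of 9.63 to 170.3 and are not described further. Hspa8, Hsp90aa1 and Hspa1b were reached only by probe sets that carry several symbols, so they are not members.

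The arrays held total RNA of the femur's hip end, with the femoral neck, from 4-week-old animals without treatment. Each strain, Dark Agouti (DA), Copenhagen 2331 (COP), Lewis (LEW) or Fischer 344 (F344), had 4 arrays. F344 and LEW founded the F2 cross in which a locus on chromosome 4 was linked to skeletal traits, and the series asked which of its genes differ in expression. Sex and the number of animals behind an array were not given in the labels, so the p-values reflect only how these samples spread, which may be technical. Each of the 16 arrays gave 31099 MAS5 signals, scaled to a 2% trimmed mean of about 1000, with medians of 303 to 325. The number of arrays limits the precision. Bone was well represented, with signals of 56190 to 75008 for the collagen gene Col1a1 and 48771 to 63221 for the osteocalcin gene Bglap. So was skeletal muscle, with 51692 to 72850 for the actin gene Acta1. In a piece of bone with marrow and muscle, fewer cells of a type and less RNA per cell cannot be told apart. Whether each probe set reads the 4 strains equally well was not tested.

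Hsp70 proteins bind exposed stretches of unfolded chains and release them with a cycle of ATP hydrolysis. DnaJ proteins, named for their J domain, hand substrates to Hsp70 and start that hydrolysis, and Hsp110 proteins exchange the nucleotide. Hsp90 takes over partly folded clients such as kinases and steroid receptors, small heat shock proteins hold unfolded chains without ATP, and Hsp60 with Hsp10 forms a folding chamber in mitochondria. Osteoblasts secrete large amounts of collagen, which puts a load on the chaperones of the endoplasmic reticulum (ER), and striated muscle is rich in small heat shock proteins. The heat shock factor Hsf1 drives many cytosolic and mitochondrial chaperone genes through heat shock elements, and the unfolded protein response drives ER chaperones through the ER stress element.

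These elements can be read in the promoters. RefSeq promoter sequences of the assembly GRCr8 (250 bases before to 50 after the start) were found for 51 of the 62 genes. The core of the heat shock element was searched as GAANNTTC or TTCNNGAA, each of which reads the same on both strands. It was present in 14 of the 51 promoters, or 27.5%, and in 15.9% of all 33469 promoters of that length. The ER stress element, searched on both strands, was in 3 of the 51, Hspa5, Hsp90b1 and Dnajc3, and in 22 of all promoters, or 0.0657%. A match is a run of letters and not a proven site. The promoters shown are those of Dnajb6 with the widest strain range of the DnaJ genes, of small heat shock proteins that were lowest in COP (Hspb6, Hspb1), of inducible chaperones (Hsph1, Hspe1) and of ER chaperones (Hspa5, Hsp90b1), 5′ to 3′ along the gene with matches in capitals. Matches that touch share 3 bases. Each promoter shown holds a match, which not every gene of these kinds does. Among other small heat shock proteins with their lowest mean in COP, Hspb8 holds a match, while Hspb7 and Hspb3 hold none. Of other inducible genes, Dnajb1 holds matches and Hspa1a holds none in its window. Each window covers 1 annotated start, and bases farther away or at another start were not searched.
Dnajb6, GRCr8 chr4:6231955-6232254, minus strand: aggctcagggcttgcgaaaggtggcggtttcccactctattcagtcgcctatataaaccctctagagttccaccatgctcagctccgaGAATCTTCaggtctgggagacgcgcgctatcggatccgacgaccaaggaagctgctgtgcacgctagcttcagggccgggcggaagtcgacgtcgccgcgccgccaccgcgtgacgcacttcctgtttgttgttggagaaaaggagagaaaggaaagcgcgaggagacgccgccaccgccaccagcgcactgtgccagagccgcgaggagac
Hspb6, GRCr8 chr1:94934122-94934421, plus strand: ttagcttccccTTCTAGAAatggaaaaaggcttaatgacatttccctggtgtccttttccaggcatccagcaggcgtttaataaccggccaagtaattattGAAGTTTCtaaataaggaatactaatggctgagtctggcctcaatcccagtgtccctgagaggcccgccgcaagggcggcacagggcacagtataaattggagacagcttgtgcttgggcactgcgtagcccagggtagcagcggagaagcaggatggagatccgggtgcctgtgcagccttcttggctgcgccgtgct
Hspb1, GRCr8 chr12:26432252-26432551, minus strand: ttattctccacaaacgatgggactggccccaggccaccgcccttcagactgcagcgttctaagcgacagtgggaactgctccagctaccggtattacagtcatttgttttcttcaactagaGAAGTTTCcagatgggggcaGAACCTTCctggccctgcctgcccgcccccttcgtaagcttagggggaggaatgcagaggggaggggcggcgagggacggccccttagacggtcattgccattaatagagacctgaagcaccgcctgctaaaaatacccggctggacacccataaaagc
Hsph1, GRCr8 chr12:10427118-10427417, plus strand: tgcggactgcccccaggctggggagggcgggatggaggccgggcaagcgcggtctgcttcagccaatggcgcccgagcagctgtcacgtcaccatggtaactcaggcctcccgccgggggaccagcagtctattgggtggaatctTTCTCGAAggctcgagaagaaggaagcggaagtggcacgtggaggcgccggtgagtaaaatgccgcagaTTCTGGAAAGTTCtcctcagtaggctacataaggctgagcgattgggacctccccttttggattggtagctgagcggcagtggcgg
Hspe1, GRCr8 chr9:64084077-64084376, plus strand: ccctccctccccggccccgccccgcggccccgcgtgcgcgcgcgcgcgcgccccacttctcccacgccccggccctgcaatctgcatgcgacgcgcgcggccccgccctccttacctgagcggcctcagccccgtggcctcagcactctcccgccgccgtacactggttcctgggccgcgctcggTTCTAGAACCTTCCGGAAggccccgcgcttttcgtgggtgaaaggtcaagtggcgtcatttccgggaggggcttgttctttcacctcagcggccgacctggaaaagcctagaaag
Hspa5, GRCr8 chr3:38452766-38453065, plus strand: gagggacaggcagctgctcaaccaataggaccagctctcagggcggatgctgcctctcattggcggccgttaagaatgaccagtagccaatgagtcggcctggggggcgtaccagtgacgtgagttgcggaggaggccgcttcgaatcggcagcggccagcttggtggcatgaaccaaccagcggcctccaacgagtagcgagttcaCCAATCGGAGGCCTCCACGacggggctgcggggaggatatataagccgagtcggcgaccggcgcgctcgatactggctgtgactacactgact
Hsp90b1, GRCr8 chr7:23012244-23012543, minus strand: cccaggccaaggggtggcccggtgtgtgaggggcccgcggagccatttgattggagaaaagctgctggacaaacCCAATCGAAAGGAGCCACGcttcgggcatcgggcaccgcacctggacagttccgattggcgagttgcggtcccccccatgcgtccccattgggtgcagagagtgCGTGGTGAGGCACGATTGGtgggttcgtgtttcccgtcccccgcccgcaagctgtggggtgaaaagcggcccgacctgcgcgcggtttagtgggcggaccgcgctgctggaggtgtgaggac
The window of Hspe1, which encodes mitochondrial Hsp10, holds 3 linked matches from 65 bases before the start. Its neighbour on chromosome 9 is Hspd1, which encodes Hsp60 and lies on the opposite strand. The 2 windows overlap, so the 3 matches in the Hspd1 window are the same bases read from the other strand. This stretch is counted for both genes among the 14 promoters. The ER stress element of Hspa5 begins 43 bases before the start, and Hsp90b1 holds 2 copies, on opposite strands, from 176 and 72 bases before it. The single match of Dnajb6 begins 162 bases before the start.

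Over the whole set, 22 of the 54 tested genes differed among the 4 strains by limma's moderated F-test at an adjusted p under 0.05, or 40.7%, where 32.9% of all 10548 genes did. Without the small heat shock proteins it was 17 of 48, or 35.4%. A further 6 genes passed in a single pair of strains without passing the F-test, and 26 passed nothing. For those 26 the largest difference between any pair of strains was 0.056 to 0.519 on the log2 scale, with a median of 0.164. The median spread within a strain was 0.122 log2 units for the 54 genes and 0.142 for all genes. F344 had the highest strain mean for 10 of the 22 genes and the lowest for 0, and COP had the lowest for 13. The 22 include 5 small heat shock proteins, each with its lowest mean in COP, and the order was not counted without them. Among all 3474 genes that differed, F344 was highest in 30.9% and lowest in 30.6%, and COP was lowest in 27.6%; F344 was highest in 45.5% of the 22.

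**Figure D1:**
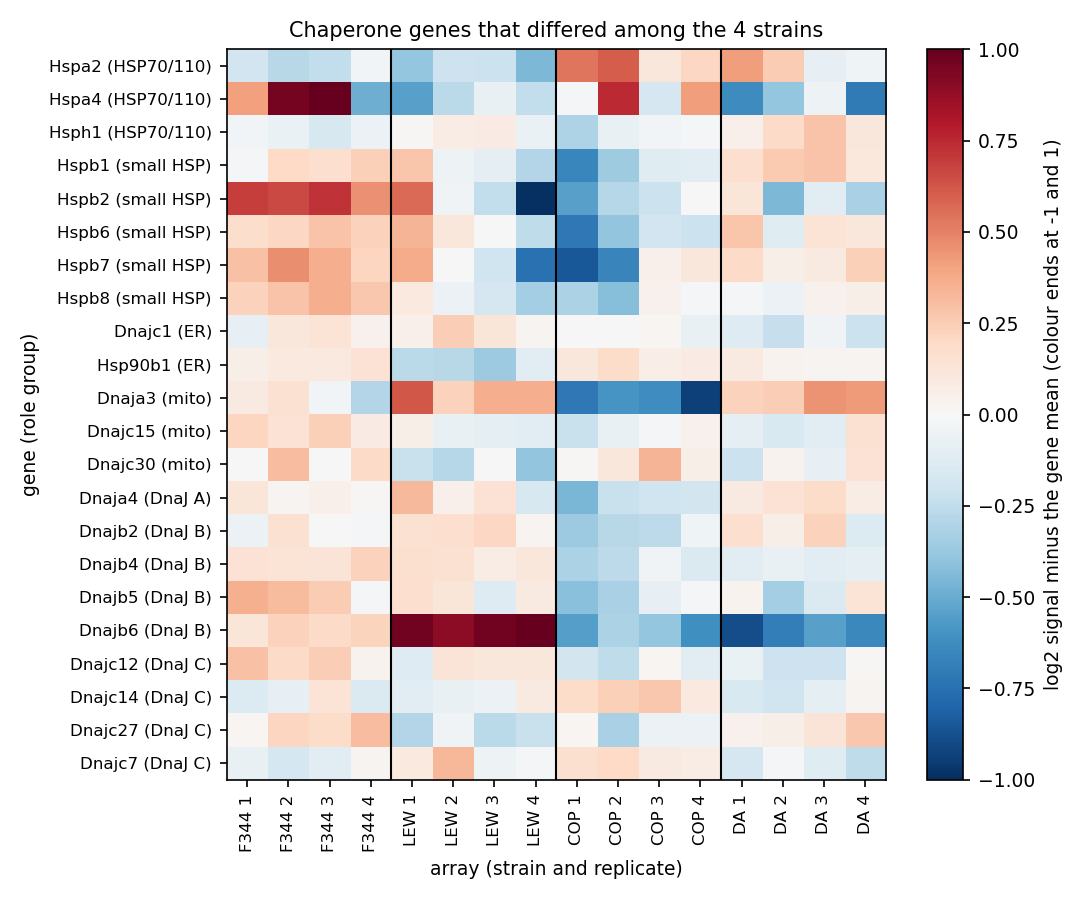
The 22 chaperone genes that differed among strains, as log2 signal minus the gene's mean on each of the 16 arrays, with role groups in brackets. LEW is high for Dnajb6 on all 4 arrays, COP is low for Dnaja3 on all 4, and the small heat shock proteins vary between arrays of LEW and of COP.

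Between F344 and LEW, the parents of the cross, 12 of the 54 genes differed, 6 higher and 6 lower in F344. Over all genes 14.5% were called, 6.96% higher and 7.54% lower. The median log2 difference of the 54 genes was 0.020, against 0.012 over all genes. Higher in F344 were Hspb2, Hspb8, Dnajc27, Hsp90b1, Dnajc30 and Dnajc15, and lower were Dnajb6, Dnajc6, Dnajc11, Dnaja3, Hspa14 and Dnajc9. The count fell to 7 without F344 replicate 2 or without LEW replicate 1, 3 or 4, and to 6 without F344 replicate 3. No called member changed 2-fold or more.

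Between F344 and COP, 15 of 54 genes differed, 14 higher and 1 lower in F344, where 21.0% of all genes were called, 10.4% higher and 10.6% lower. Of the 14, 5 were small heat shock proteins, and without them the count was 10 of 48, or 20.8%. Of these 10, 9 were higher and 1 lower in F344, so the direction stayed mostly 1-sided without the small heat shock proteins. The median log2 difference was 0.086 over the 54 genes and 0.000 over all genes. Between F344 and DA, 10 differed, 8 higher and 2 lower, where 17.3% of all genes were called, 8.11% higher and 9.20% lower. That count was 5 without F344 replicate 2 or DA replicate 3, 3 without F344 replicate 3, 4 without DA replicate 2 and 6 without DA replicate 4.

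Between COP and DA, 8 genes differed, 2 higher and 6 lower in COP, where 12.2% of all genes were called, 5.74% higher and 6.42% lower; without COP replicate 1 the count was 4. Between LEW and COP, 9 differed, 6 higher and 3 lower in LEW, where 14.1% of all genes were called, 6.41% higher and 7.72% lower. Between LEW and DA, 5 differed, 3 higher and 2 lower in LEW, where 10.4% of all genes were called, 4.65% higher and 5.77% lower. These pairs share their arrays, so the 6 counts are not independent.

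**Figure D2:**
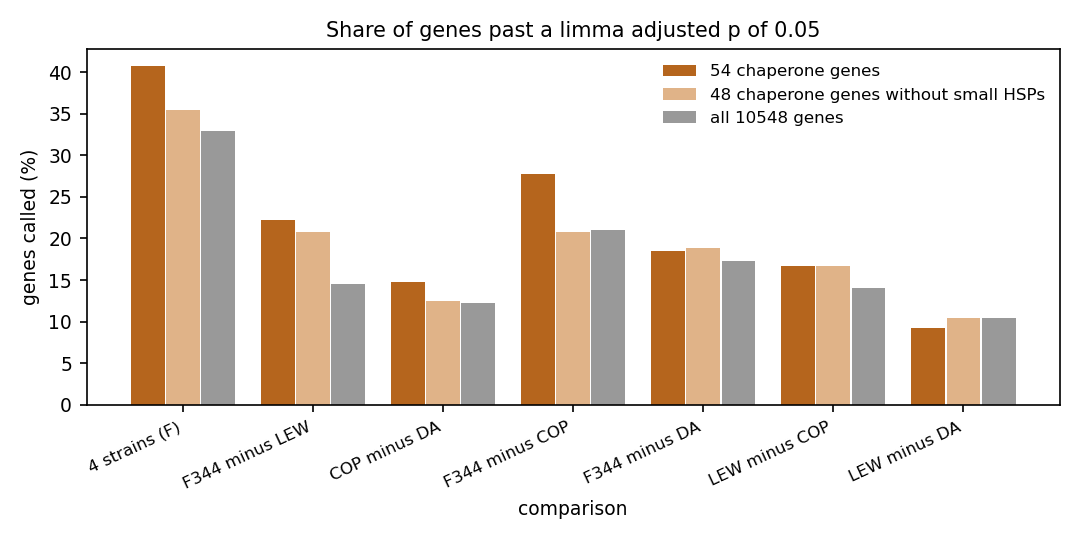
Share of genes past a limma adjusted p of 0.05 among the 4 strains and in each pair, for the 54 chaperone genes, for the 48 that are not small heat shock proteins and for all 10548 genes. The bars of F344 minus COP are 27.8%, 20.8% and 21.0%.

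Dnajb6, a class B DnaJ protein that keeps aggregation-prone chains soluble and is expressed in many tissues, had the widest strain range of the DnaJ genes tested and lies on chromosome 4. Its signals were 4018, 4350, 4230 and 4310 in F344, 7233, 6883, 7210 and 7635 in LEW, 1998, 2293, 2538 and 2363 in DA, and 2522, 2974, 2825 and 2417 in COP. LEW lay above F344 and F344 above COP and DA without overlap of arrays, while COP and DA overlapped. The F344 mean was 4227 ± 148 against 7240 ± 308 in LEW (SD, n = 4). F344 minus LEW was -0.78 on the log2 scale (SE 0.075, limma adjusted p = 1.90e-07). LEW exceeded COP by 1.44 (SE 0.075, adjusted p = 1.83e-11) and DA by 1.66 (SE 0.075, adjusted p = 1.23e-12), which is 3.16-fold. F344 exceeded COP by 0.66 and DA by 0.88 (adjusted p = 1.63e-06 and 2.98e-08). COP and DA did not pass (0.22, adjusted p = 0.0565). All 5 calls held without any single array.

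The other probe sets annotated to Dnajb6 gave other patterns. Both are annotated to Dnajb6 together with 2 entries named as its copies (Dnajb6-ps4 and Dnajb6-ps10), so neither measures the gene alone. The first was lower in LEW (1070 ± 76.4) and F344 (1178 ± 103) than in COP (1639 ± 91.5) and DA (1521 ± 72.4; SD, n = 4). Its log2 difference of LEW minus COP was -0.62 (SE 0.079, limma adjusted p = 9.31e-06), the opposite of the gene's own probe set, and F344 and LEW did not differ (0.14). The second had 1851 ± 83.1 in F344, 1998 ± 359 in LEW, 1787 ± 58.5 in DA and 1590 ± 118 in COP, and passed in LEW minus COP alone (0.31, adjusted p = 0.0429). Thus the LEW to COP direction was higher for 2 of these 3 probe sets and lower for 1. On chromosome 4 the next protein-coding gene in the table, Ube3c, showed no called difference for F344 minus LEW in its representing probe set (-0.059, adjusted p = 0.774), but its other probe set was lower in LEW (0.80, adjusted p = 3.82e-04). Nom1, which is 4 steps along, was also highest in LEW (F344 minus LEW -1.09, adjusted p = 1.30e-08), but the order of its other strains differed. For Nom1 F344 was lower than DA (-0.34 for F344 minus DA, adjusted p = 0.0112), while for Dnajb6 F344 was higher than DA. Lmbr1, 5 steps along, showed no called difference for F344 minus LEW (0.17, adjusted p = 0.588). Nom1 was singled out after its values were seen. The other tested member on chromosome 4, Dnajc2, which works at the ribosome's exit tunnel, passed no test (F344 minus LEW -0.22).

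**Figure D3:**
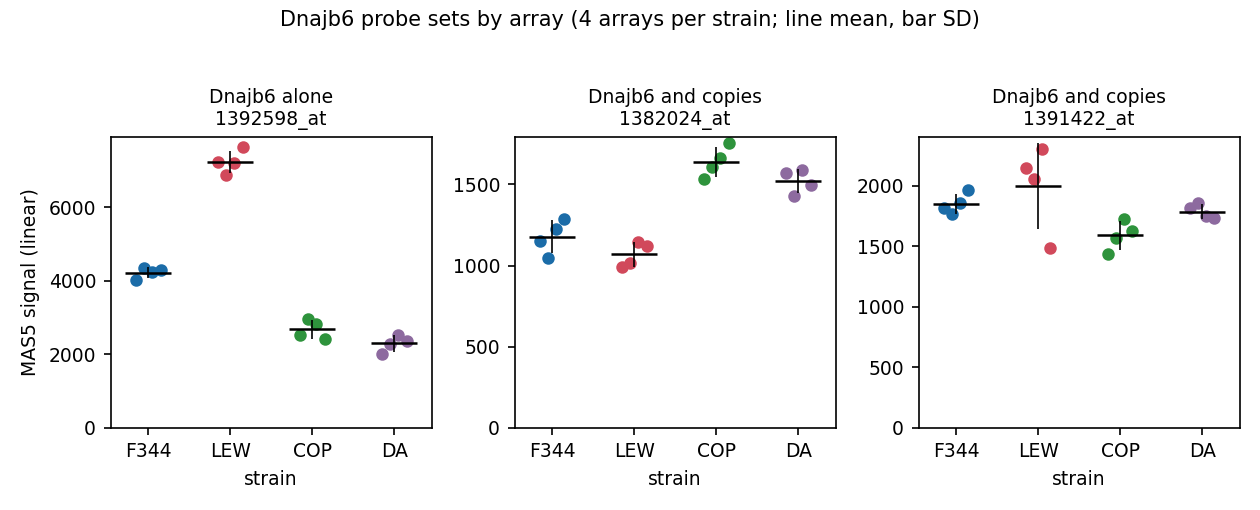
MAS5 signal of the 3 probe sets annotated to Dnajb6 on each array, by strain (points), with the strain mean (line) and SD (bar). The probe set of Dnajb6 alone is highest in LEW at 6883 to 7635, while the first shared probe set (middle panel) is highest in COP at 1536 to 1754.

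Among the mitochondrial chaperones, Dnaja3, the DnaJ partner of mitochondrial Hsp70, was lowest in COP. Its signals were 973, 1018, 898 and 748 in F344, 1403, 1073, 1175 and 1173 in LEW, 1075, 1086, 1251 and 1227 in DA, and 556, 606, 593 and 480 in COP. All COP arrays lay below all others. The mean was 558 ± 56.6 in COP and 1160 ± 92.6 in DA (SD, n = 4). COP minus DA was -1.06 on the log2 scale (SE 0.11, limma adjusted p = 7.07e-07), so COP was 2.08-fold lower. LEW exceeded COP by 1.11 (adjusted p = 2.47e-07) and F344 exceeded COP by 0.70 (adjusted p = 9.23e-05). F344 was also lower than LEW (-0.41, adjusted p = 0.0146) and DA (-0.36, adjusted p = 0.0297). The call against LEW was lost without F344 replicate 4 or LEW replicate 1 (adjusted p up to 0.0633). That against DA was lost without replicate 3 or 4 of either strain (up to 0.113).

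The other mitochondrial members were closer together. Hspd1 (Hsp60) had strain means from 16794 in COP to 18509 in DA, and Hspe1 (Hsp10) from 15208 in COP to 16820 in DA, and neither passed the F-test (limma adjusted p = 0.135 and 0.110). Hspa9, the mitochondrial Hsp70 itself, had means of 2964 to 3330 (adjusted p = 0.251). Of 9 mitochondrial members 3 passed the F-test, Dnaja3, Dnajc15 and Dnajc30, a share of 33.3% against 32.9% of all genes. Dnajc15, a DnaJ protein of the inner membrane, was 4683 ± 228 in F344 and 3972 to 4031 in the means of the other strains, with log2 differences of 0.22 to 0.24. Dnajc30 was 641 ± 74.9 in LEW, against 820 ± 86.5 in F344 (0.35, adjusted p = 0.0364) and 822 ± 85.7 in COP (SD, n = 4). Dnajc11, of the inner membrane's organizing complex, was lower in F344 than LEW (-0.42, adjusted p = 0.0489), but the call was lost without any 1 of 12 arrays, with an adjusted p of up to 0.137, and its other kept probe set did not pass.

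**Figure D4:**
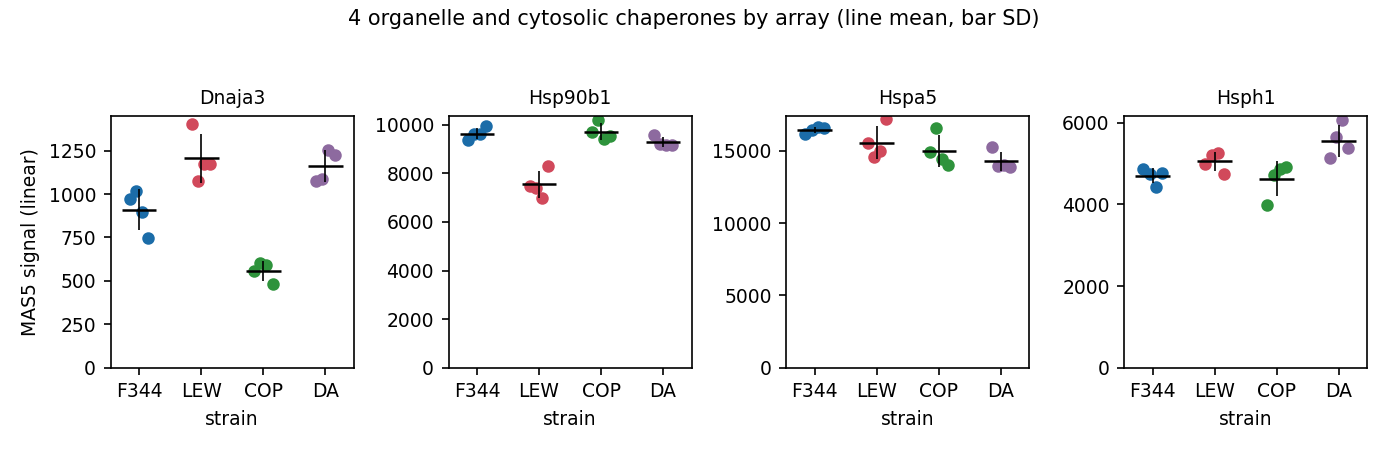
MAS5 signal on each array (points) by strain for Dnaja3, Hsp90b1, Hspa5 and Hsph1, with strain mean (line) and SD (bar); axes start at 0. Dnaja3 is lowest in COP (480 to 606), and Hsp90b1 is lowest in LEW (7004 to 8302).

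Of the 6 small heat shock proteins tested 5 passed the F-test, which 32.9% of all genes did, and all 5 were higher in F344 than in COP, as were 10.4% of all genes. For Hspb6, the Hsp20 of muscle, signals were 25430, 26034, 27389 and 26459 in F344, 28576, 24335, 22597 and 18847 in LEW, 27317, 20727, 24760 and 24301 in DA, and 13705, 17144, 19768 and 19434 in COP. The COP arrays lay below those of F344 and DA, and LEW overlapped all strains. Hspb6 was higher in F344 than COP by 0.60 (SE 0.11, limma adjusted p = 6.40e-04) and lower in COP than DA by a log2 difference of -0.48 (adjusted p = 0.00741). The call of LEW minus COP (0.43, adjusted p = 0.0127) was lost without LEW replicate 1 or COP replicate 1 (up to 0.0576).

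Hspb1 (Hsp25), which binds actin filaments and is induced by heat, had signals of 7577, 8779, 8577 and 9008 in F344, 9255, 7380, 7171 and 6225 in LEW, 8585, 9182, 9305 and 8210 in DA, and 4852, 5967, 7023 and 7108 in COP. It was lower in COP than in F344 (0.46 for F344 minus COP, SE 0.11, limma adjusted p = 0.00560) and DA (-0.52 for COP minus DA, adjusted p = 0.00364). Hspb2, a partner of Hspb3 in muscle, was highest in F344, with signals of 668, 653, 681 and 566, against 614, 404, 349 and 203 in LEW, 449, 303, 385 and 330 in DA, and 283, 340, 357 and 415 in COP. Its log2 differences for F344 were 0.82 against LEW (adjusted p = 0.0186), 0.89 against COP (adjusted p = 0.00765) and 0.82 against DA (adjusted p = 0.0165). LEW replicate 1 lay within the F344 range. The call against LEW was lost without F344 replicate 3 or LEW replicate 4 (up to 0.0539) and that against DA without DA replicate 2 (0.0572).

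Hspb8 (Hsp22), which works with Bag3 in clearing damaged filament proteins, was 3742 ± 142 in F344, 2848 ± 359 in LEW, 3089 ± 115 in DA and 2739 ± 431 in COP (SD, n = 4). F344 exceeded LEW by 0.40 (SE 0.096, limma adjusted p = 0.00649) and COP by 0.46 (adjusted p = 0.00154), and its other kept probe set was called the same way in both pairs. Hspb7, a heart and muscle form, was 2792 ± 205 in F344 and 1829 ± 597 in COP (SD, n = 4; 0.67, adjusted p = 0.0187). That call was lost without F344 replicate 2 or COP replicate 1 or 2 (up to 0.0771), and the gene's other kept probe set was not called. Hspb3 had means of 1424 in COP to 1850 in F344 and did not pass (adjusted p = 0.214).

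Muscle markers moved with the small heat shock proteins in some strains. Of 19 tested skeletal muscle genes, 10 were higher and 0 lower in F344 than COP, where 10.4% and 10.6% of all genes were. In COP against DA, 1 was higher and 11 lower in COP, where 5.74% and 6.42% of all genes were. Their summed signal was 596709 to 635430 in F344, 511532 to 645588 in LEW, 445982 to 553775 in COP and 592065 to 714269 in DA, and none of the tested defining muscle genes was near 0. Across the 4 LEW arrays the mean centred log2 signal of the muscle list was 0.20, -0.03, -0.10 and -0.21, and that of the 6 small heat shock proteins 0.33, -0.01, -0.13 and -0.49. Across the 4 COP arrays the muscle list gave -0.45, -0.23, -0.05 and -0.08 and the small heat shock proteins -0.61, -0.42, -0.07 and 0.00. In LEW and COP the array with the lowest muscle signal had the lowest small heat shock protein signal. The DA arrays gave 0.03, -0.01, 0.07 and 0.28 for muscle and 0.13, -0.10, 0.06 and 0.09 for the small heat shock proteins, so DA replicate 4 had the highest muscle value of the 16 arrays without a matching rise. The F344 arrays gave 0.09 to 0.16 and 0.24 to 0.37. The strain means of F344 and DA were 0.14 and 0.09 for muscle, but 0.31 and 0.04 for the small heat shock proteins. Cryab, the lens and muscle crystallin that neighbours Hspb2 on chromosome 8, is counted in the muscle list. It is itself a small heat shock protein whose symbol falls outside the member rule, so the muscle list is not free of that family. Cryab was 20283 ± 1850 in COP and 29278 ± 2941 in DA (SD, n = 4, -0.53, limma adjusted p = 0.00188). F344 exceeded COP by 0.51 (adjusted p = 0.00172). Adipocyte markers showed some of the same moves. Of 7 tested, 4 were higher and 0 lower in F344 than COP, and 0 were higher and 3 lower in COP than DA. Their mean centred log2 signal was 0.14, -0.00, -0.08 and -0.15 on the LEW arrays. On the COP arrays it was -0.30, -0.30, -0.04 and -0.26. The strain means were 0.08 in F344 and 0.17 in DA. The part of muscle or of adipocytes in these differences was not tested.

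**Figure D5:**
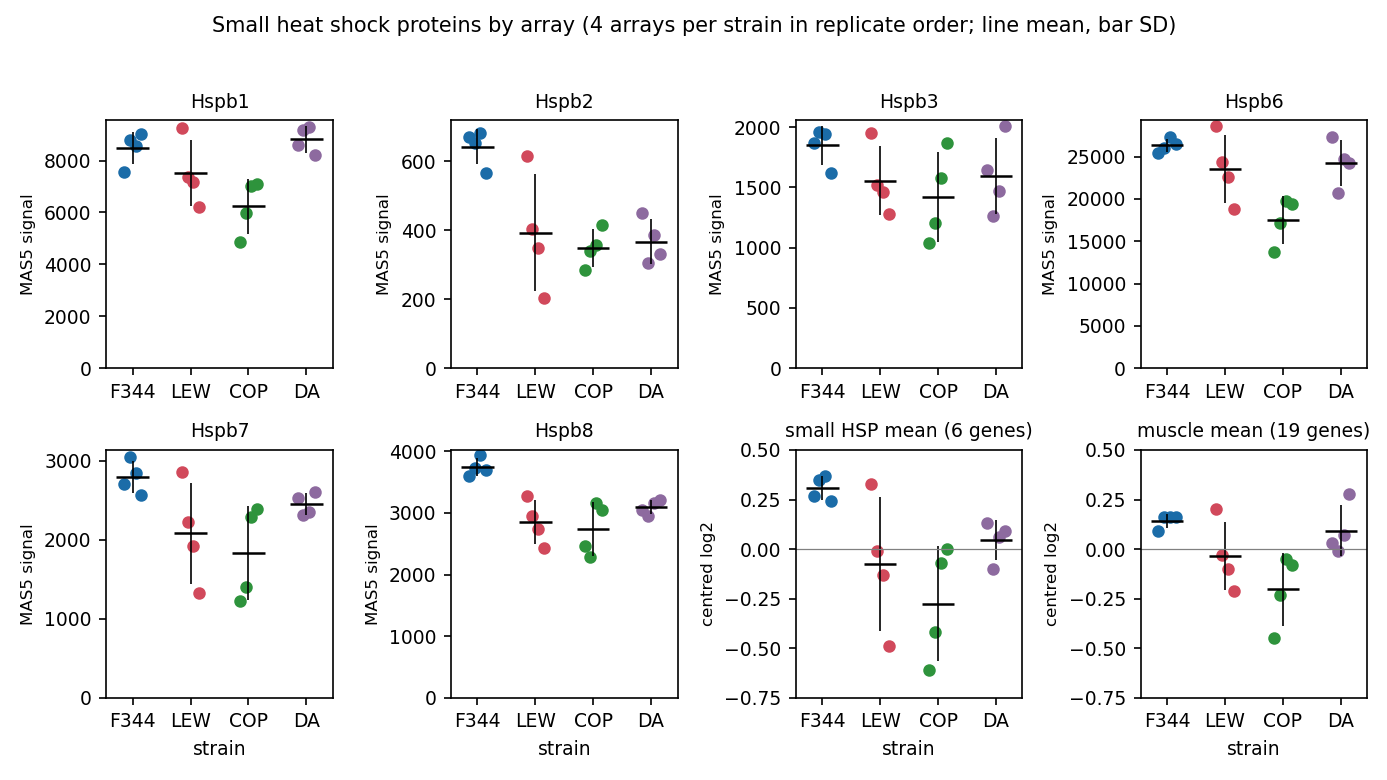
MAS5 signal of 6 small heat shock proteins on each array (points in replicate order) by strain, with strain mean (line) and SD (bar), and the mean log2 signal, centred on all arrays, of these 6 genes and of 19 skeletal muscle genes. The LEW arrays span 0.33 to -0.49 for the small heat shock proteins and 0.20 to -0.21 for muscle.

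Of 12 ER members, 2 passed the F-test, Hsp90b1 and Dnajc1, or 16.7%, against 32.9% of all genes. Hsp90b1 (Grp94), the Hsp90 of the ER, which folds integrins and the insulin-like growth factors, was lowest in LEW, with signals of 7472, 7409, 7004 and 8302. It was 9378, 9606, 9617 and 9937 in F344, 9713, 10199, 9402 and 9539 in COP, and 9582, 9188, 9181 and 9161 in DA. All LEW arrays lay below all others. The log2 difference was 0.35 for F344 minus LEW (SE 0.054, limma adjusted p = 8.10e-05), -0.37 for LEW minus COP (adjusted p = 4.66e-05) and -0.30 for LEW minus DA (adjusted p = 5.55e-04). These calls held without any single array.

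Hspa5 (BiP), the ER Hsp70 and sensor partner of the unfolded protein response, which shares the ER stress element with Hsp90b1, did not share this pattern. It was 16436 ± 206 in F344, 15566 ± 1172 in LEW, 14286 ± 654 in DA and 14980 ± 1105 in COP (SD, n = 4). It passed in F344 minus DA alone (0.20, limma adjusted p = 0.0251), and without any 1 of 6 of the 8 arrays of that pair the adjusted p was up to 0.0656. Dnajb11, a BiP partner that binds nascent chains, likewise passed in F344 minus DA alone (0.24, adjusted p = 0.0347, up to 0.0925 without 1 array). Dnajc1, an ER membrane DnaJ protein, was 2457 ± 171 in LEW and 2044 ± 131 in DA (SD, n = 4; 0.27, adjusted p = 0.0149), a call lost without LEW replicate 2 or DA replicate 2 (up to 0.0698) and not made by its other kept probe set. Dnajc3 (p58IPK) and Dnajb9 (ERdj4), both targets of the unfolded protein response, did not pass the F-test (adjusted p = 0.131 and 0.422). Neither did Hspa13, Dnajb12, Dnajb14, Dnajc10, Dnajc18 or Dnajc22.

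In the cytosol the inducible Hspa1a, Dnajb1 and Dnaja1 did not pass the F-test in their representing probe sets. Hspa1a, the stress-induced Hsp70, lies in the major histocompatibility complex on chromosome 20. Its signals were 1606, 1716, 1617 and 1555 in F344, 2291, 1583, 1472 and 1305 in LEW, 1361, 1239, 1600 and 1717 in DA, and 947, 1390, 1496 and 1513 in COP. The strains overlapped apart from F344 and COP, and the F-test did not pass (limma adjusted p = 0.294). Dnajb1 (Hsp40), its inducible partner, had means of 2783 to 3100 (adjusted p = 0.179), Dnaja1 of 5903 to 6544 (0.122), and Hsp90ab1, the constitutive cytosolic Hsp90, of 20602 to 22564 (0.226). Hsph1 (Hsp105), an Hsp110 exchange factor, was highest in DA at 5562 ± 394, against 4624 ± 428 in COP and 4701 ± 187 in F344 (SD, n = 4). The log2 differences were -0.27 for COP minus DA (adjusted p = 0.0133) and -0.24 for F344 minus DA (adjusted p = 0.0208). The first was lost without COP replicate 1 or DA replicate 3 (up to 0.0617), the second without F344 replicate 3 or DA replicate 2 or 3 (up to 0.0784). Of 16 tested immediate early genes, which respond within minutes to many stimuli, 5 were higher and 0 lower in F344 than LEW. Over all genes 6.96% were higher and 7.54% lower. The calls of Hsph1 are in other pairs. In F344 against DA, 4 early genes were higher and 0 lower, where 8.11% and 9.20% of all genes were. In COP against DA, 1 was higher and 1 lower, where 5.74% and 6.42% of all genes were. The part of these early genes in the chaperone values was not tested. The other kept probe set of Hsph1 was called the same way in F344 minus DA and was also lower in F344 than COP, but it did not pass in COP minus DA (-0.084, adjusted p = 0.518).

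Hspa2, the Hsp70 best known from male germ cells, was higher in COP at 419 ± 69.6 than in F344 at 284 ± 22.3 (-0.55 for F344 minus COP, limma adjusted p = 0.0126) and LEW at 260 ± 22.1 (-0.68 for LEW minus COP, adjusted p = 0.00325; SD, n = 4). The first call was lost without COP replicate 2 (0.0541), and the second was not made by the gene's other kept probe set (-0.52, adjusted p = 0.0741). Hspa4 (Apg-2), another Hsp110, spread widely within F344: its F344 signals were 664, 973, 1036 and 357, and those of DA 324, 383, 483 and 306. The log2 difference of 0.93 (SE 0.26, adjusted p = 0.0177) rested on F344 replicates 2 and 3 and DA replicate 4, without any of which it was lost (up to 0.0776). The arrays of the strains overlapped. Hspa14, a ribosome-associated Hsp70, was lower in F344 than LEW (-0.23, adjusted p = 0.0372).

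Of the class A and B DnaJ proteins outside mitochondria and the ER, 5 of 8 tested passed the F-test, among them Dnajb6, where 32.9% of all genes did. In the other 4, Dnaja4, Dnajb2, Dnajb4 and Dnajb5, COP had the lowest mean. Dnajb4, a muscle-rich partner of Hsp70, was 2422, 2519, 2940 and 2726 in COP and 2795, 2873, 2808 and 2815 in DA, against 3331, 3321, 3306 and 3548 in F344 and 3382, 3357, 3183 and 3273 in LEW. Both lower strains lay below both higher ones on all arrays. F344 exceeded COP by 0.35 (SE 0.061, limma adjusted p = 2.83e-04) and DA by 0.26 (adjusted p = 0.00581), and LEW exceeded COP by 0.32 (adjusted p = 9.01e-04). LEW exceeded DA by 0.22 (adjusted p = 0.0201), a call lost without LEW replicate 2 (0.0586). Dnaja4, a target of sterol regulation, was 4378 ± 377 in COP and 5442 to 5712 in the means of the other strains (SD, n = 4; -0.39 for COP minus DA, adjusted p = 0.00273). Its other kept probe set did not pass in COP minus DA (-0.16, adjusted p = 0.350) or LEW minus COP, but was called the same way in F344 minus COP. Dnajb2, a neuronal ubiquitin-linked form, was 2328 ± 226 in COP and 3013 ± 161 in LEW (SD, n = 4; 0.38, adjusted p = 0.00294); its call against DA (-0.32 for COP minus DA) was lost without COP replicate 1 or DA replicate 3 (up to 0.0568). The call against F344 (0.26 for F344 minus COP) was lost without any 1 of 6 arrays, F344 replicates 2, 3 and 4 and COP replicates 1, 2 and 3 (up to 0.115). Dnajb5 passed in F344 minus COP alone (0.43, adjusted p = 0.0154), and its other tested probe set did not.

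Class C DnaJ proteins share little beyond the J domain. Of the 13 not counted above, 4 passed the F-test, or 30.8%, against 32.9% of all genes. They include Dnajc14, which is known as an ER membrane protein but was counted here. Dnajc27 was 873 ± 70.9 in F344 and 669 ± 56.3 in LEW (SD, n = 4; 0.38, limma adjusted p = 0.0111). Dnajc12, which helps aromatic amino acid hydroxylases to fold, was 923 ± 69.7 in F344 and 738 ± 60.6 in COP (SD, n = 4; 0.32, adjusted p = 0.0186), lost without F344 replicate 1 or 3 or COP replicate 2 (up to 0.0663). Dnajc7, which joins Hsp70 and Hsp90, was higher in COP than DA (0.27, adjusted p = 0.0218), lost without COP replicate 1 or 2 or DA replicate 4 (up to 0.0714), and so was Dnajc14 (0.30, adjusted p = 0.0328), in 1 of its 2 tested probe sets. Dnajc6, the auxilin that uncoats clathrin vesicles, was lower in F344 than LEW (-0.59, adjusted p = 0.0405), a call lost without any 1 of 6 arrays (up to 0.129). Dnajc9, a histone chaperone of dividing cells, was also lower in F344 than LEW (-0.20, adjusted p = 0.0320). In that pair 0 of 19 cell cycle markers were higher and 8 lower in F344, where 6.96% and 7.54% of all genes were. Their summed signals were 104566 to 107120 in F344 and 113273 to 134667 in LEW, and their part in the Dnajc9 value was not tested.

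Where a gene had more than 1 tested probe set, agreement was partial. Such genes numbered 17, with 18 further probe sets. Over the 6 pairs of strains, both probe sets were called the same way in 5 cases, the representing one alone in 9, the other alone in 4 and neither in 90, and none were called in opposite directions. Dnajb1 and Dnaja1, not called by their representing probe sets, were called by the other one, Dnajb1 in F344 minus LEW (-0.26) and Dnaja1 in F344 minus COP (-0.20).

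Partners of the chaperones were taken from lists of 108 genes. Of the 101 tested, 31 passed the F-test, or 30.7%, close to the 32.9% of all genes. Of 32 heat shock regulators and co-chaperones 12 passed, or 37.5%. Hsf1, the master regulator of the heat shock response, had means of 635 to 704 and did not pass (limma adjusted p = 0.625), nor did Bag3 (0.419) or the adaptor Stip1 (0.867), which links Hsp70 to Hsp90. Hsf2, a related factor, was higher in F344 than DA (0.36), as were Sugt1 (0.47) and Hspbap1 (0.48). Chordc1, an Hsp90 co-chaperone, was 1780 ± 145 in COP and 2373 ± 96.6 in F344 (SD, n = 4; 0.42, adjusted p = 1.82e-04). Of TRiC and prefoldin subunits, 2 of 15 passed, Pfdn2 and Cct8, or 13.3%. Pfdn2 was higher in F344 than LEW (0.33).

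Of 29 ER folding and stress genes, 10 passed the F-test, or 34.5%, against 32.9% of all genes. Hyou1, an ER relative of Hsp110 and exchange factor of BiP, had signals of 180, 88.6, 161 and 134 in F344 and 504 to 1001 on the 12 other arrays. All F344 arrays lay below all others. The F344 mean of 141 is under the level of 174 used as a filter, which the gene passed only through the other strains, so no fold or test is given, although it is 1 of the 10. Pdia4, a disulphide isomerase on chromosome 4, was 1052 ± 76.9 in LEW and 1519 ± 125 in F344 (SD, n = 4; 0.53, adjusted p = 4.98e-05). It was lowest in LEW like Hsp90b1. Trib3, a stress-induced pseudokinase, was 340 ± 53.8 in F344 and 191 ± 26.2 in LEW (SD, n = 4, log2 difference 0.83). Its means of 167 in COP and 175 in DA were, like that of LEW, close to the filter level of 174. The difference is thus measured against dim signals. Calr (calreticulin) and Ddit3 (Chop) did not pass the F-test (adjusted p = 0.689 and 0.130). Of 14 collagen chaperones 6 passed, or 42.9%. Serpinh1 (Hsp47), the collagen-specific chaperone, did not (adjusted p = 0.639), while Fkbp10, P3h1 and Fkbp7, which modify or fold procollagen, were higher in F344 than DA by 0.66, 0.48 and 0.57. In the same pair 4 of 11 osteoblast markers were higher and 0 lower in F344 (median 0.17), where 8.11% and 9.20% of all genes were. Of 12 cartilage markers 11 had a positive difference (median 0.36), and the smallest limma adjusted p, that of Comp, was 0.155. On the LEW arrays the mean centred log2 signal was -0.54, 0.02, -0.31 and 0.41 for cartilage and -0.30, -0.08, -0.19 and 0.16 for the collagen chaperones, and the part of these cell types was not tested. P4ha3, a collagen prolyl hydroxylase subunit, was 2025 ± 158 in COP and 2418 ± 133 in DA, against 941 ± 101 in F344 and 769 ± 131 in LEW (SD, n = 4). Of 11 genes of mitochondrial protein quality, 1 passed, or 9.09%. It was Pam16, part of the import motor that works with Hspa9, at 3101 ± 102 in COP and 4177 ± 246 in DA (SD, n = 4; -0.43, adjusted p = 6.12e-04).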

How the data were processed

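The data are 16 Affymetrix rat arrays of proximal femur, 4 for each of 4 inbred strains, grouped by the sample titles. The intensity values are those the authors deposited, 1 linear MAS5 signal per probe set and array, with the algorithm named in the submitters' processing notes; detection calls were not used. The 57 control probe sets were dropped. In the platform annotation 20826 of the other 31042 had 1 symbol, 436 several and 9780 none. All 96 member probe sets matched a RefSeq gene of GRCr8, which changed 0 symbols; the array's build is not named, so only promoters carry coordinates.

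Signals under 1 were set to 1 (255 values) before log2, with no pseudocount. Probe sets whose mean lay below the 40th percentile (signal 174) were removed, leaving 18625. In limma 3.58.1 (R 4.3.3) every strain had its own mean, estimated from the 16 arrays together with an intensity trend. Benjamini-Hochberg adjustment of the two-sided p-values covered all 18625 probe sets, and the threshold was 0.05. The scripts were tested on simulated data. The members, lists, tests and alternatives were chosen with earlier results of these data known. Genes were named by rule: up to 5 of the largest called members per pair, the 15 smallest F-test p-values, 20 core chaperones where measured, all Dnajb6 probe sets, and up to 4 called genes per partner list. Other genes, and the count without small heat shock proteins, were added after their values were seen. For those added genes (among them Dnajb5, Dnajc9, Dnajc14, Dnajc15, Dnajc30 and Hspa14) calls were not refitted under the alternatives. Figures were drawn with matplotlib 3.10.9.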

Additional observations from a re-analysis of the deposited data

Results flagged for a closer look

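Among 132 groups of 4 arrays tested (the 31 named genes and the 2 shared Dnajb6 probe sets, in each strain), 7 had an array that stood apart from the other 3 at Dixon's 95% level, which marks about 5% of groups by chance. Hsp90b1 and Hspa5, both ER chaperones with the ER stress element, stood apart on the same array, DA replicate 1, at 9582 (others 9161 to 9188) and 15264 (others 13892 to 14012). Dnajc3, the other member with that element, did not stand apart there, at 1796 against 1776, 1915 and 1724. Dnaja4 was low on COP replicate 1 at 3818 (others 4498 to 4623), and Dnajc3 was low on COP replicate 4 at 1888 (others 2033 to 2060). Dnajb4 was high on F344 replicate 4 at 3548 (others 3306 to 3331). Dnajc12 was low on LEW replicate 1 at 739 (others 871 to 882), and Hspd1 was low on LEW replicate 4 at 15616 (others 17716 to 17909).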

How the results depend on the processing

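The 8 counts of called genes were recomputed under 11 alternatives and with each array left out in turn, and 201 of 214 values stayed within 1.5 times the main count. The F344 minus LEW count of 12 was 7 with no filter on dim probe sets, and the LEW minus DA count of 5 was 3 when only the 8 arrays of those strains were fitted. Leaving out 1 array at a time gave 6 to 12 for F344 minus LEW, 4 to 10 for COP minus DA and 3 to 12 for F344 minus DA. With the replicate number as a block, 18 chaperone genes differed among the strains against 22 without it, and 11 between F344 and LEW. The labels do not say what the numbers stand for. Deviations of same-numbered arrays correlated between -0.17 and 0.088, and 4 of 16 arrays correlated best with their own number in another strain. These values cover whole arrays, and a shared effect on part of the genes was not tested. Of 50 calls of named genes in single pairs, none changed direction under any alternative run, and 23 lost significance under at least 1 of them, most often without F344 replicate 3 (12 calls). Quantile normalization and median centring moved the median of all probe sets by at most 0.0372 log2 units. Detection calls were not used, so signal over background is not known per probe set.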

Other observations

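Dnaja3 and Pam16, both partners of mitochondrial Hsp70 and both lowest in COP, lie close together on chromosome 10, with 2 protein-coding genes between them in the GRCr8 gene table. Those 2, Coro7 and Vasn, showed no called difference of LEW minus COP (-0.066 and 0.010), where Dnaja3 had 1.11 and Pam16 0.52 (limma adjusted p = 2.47e-07 and 4.58e-05). On the other side, Nmral1 ran the opposite way, higher in COP than LEW (-0.40 for LEW minus COP, adjusted p = 0.0456). These genes were singled out after their values were seen, and the source of the pattern was not tested.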
